A study of Mus musculus with 18 samples.

Results

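Cathepsins A, B, D, H, L, S and Z, the asparaginyl endopeptidase legumain, the saposin precursor prosaposin and the protease inhibitor cystatin C were followed across mouse myeloid progenitors in which mTORC1 signalling had been altered. They are the 10 genes Ctsa, Ctsb, Ctsd, Ctsh, Ctsl, Ctss, Ctsz, Lgmn, Psap and Cst3, taken by symbol from a table of 22787 genes in 18 RNA-seq libraries. They were picked with earlier results for both knockouts known, so their values in the knockout comparisons are a description, and the calls counted there carry no weight as evidence. The primary cells were granulocyte-monocyte progenitors (GMPs), 10000 per library, sorted from bone marrow as Kit-positive cells that were negative for lineage markers, Sca-1, CD127 and CD135, positive for Fc gamma receptors II and III, and low for CD34 and Ly6C. They came from Raptor KO mice, which lack the mTORC1 subunit Raptor, from Tsc2 KO mice, which lack a brake on mTORC1, and from the floxed controls Raptor fl/fl and Tsc2 fl/fl, with 3 libraries in each of the 4 groups. DR-ER-Hoxb8 cells made up the rest, an immortalised myeloid progenitor line whose growth as a progenitor depends on an estradiol-regulated form of the transcription factor Hoxb8. These cells were differentiated for 3 days in medium with stem cell factor (SCF) and without estradiol, in the solvent DMSO, in 100 nM rapamycin, which inhibits mTORC1, or in 10 nM SL0101-01, an inhibitor of the RSK family of ribosomal S6 kinases, with 2 libraries each. The 10 nM is the dose as labelled. SL0101-01 is usually applied at micromolar doses, and RSK activity was not measured. The sources used here do not give the Cre driver, the age and strain of the mice, or whether libraries of 1 group came from separate animals or cultures. The p-values below therefore measure only the spread between these libraries, which may be technical. All 6 Hoxb8 libraries came from 1 line.

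Lysosomal proteases are made as inactive precursors in the endoplasmic reticulum, tagged with mannose 6-phosphate in the Golgi, and activated by the acid of the late endosome and lysosome. Cathepsins B, H, L, S and Z are papain-like cysteine proteases, cathepsin D is an aspartic protease, and cathepsin A is a serine carboxypeptidase that also protects beta-galactosidase and neuraminidase. Legumain cleaves after asparagine and trims several cathepsins to their final forms, prosaposin is cut by cathepsin D and other proteases into the saposins that help sphingolipid hydrolases reach their substrates, and secreted cystatin C blocks papain-like proteases. Monocytes, macrophages and dendritic cells are rich in these proteins. mTORC1 sits on the lysosome surface and holds the transcription factors TFEB and TFE3 in the cytosol by phosphorylation. When it is inactive they enter the nucleus and bind a short element, built on the E-box CACGTG, near the start sites of many lysosomal genes.

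The sequences before the start sites show which of the 10 genes carry that E-box. RefSeq promoter windows (build GRCm38.p6, the 250 bases before each start) were matched for 8 of the 10 genes. Ctsb and Ctsh had no entry. Ctsa, Lgmn and Psap had 2 windows each, and a gene was counted where any of its windows held the motif. The E-box CACGTG, which reads the same on both strands, was present in 4 of the 8 genes (Ctsa, Ctsd, Ctsl and Lgmn), against 6.86% of 27025 genes in the same windows. Its extended form GTCACGTG, searched on both strands and containing the first motif, was present in 3 of the 8 (Ctsa, Ctsd and Lgmn) against 2.11% of genes, and the palindrome that repeats this extension on the other side in 0 of the 8 against 0.27%. The sites below are 30 bases each, on the strand of the gene and 5′ to 3′, with the E-box in capitals. They lie at chr2:164833743-164833772 (plus strand, Ctsa), chr7:142388048-142388077 and chr7:142387908-142387937 (minus strand, Ctsd), chr13:64370739-64370768 (minus strand, Ctsl) and chr12:102439124-102439153 (minus strand, Lgmn), with the E-box 12, 245, 98, 236 and 49 bases before the start.
Ctsa: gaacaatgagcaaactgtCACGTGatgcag
Ctsd, farther site: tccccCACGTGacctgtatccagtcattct
Ctsd, nearer site: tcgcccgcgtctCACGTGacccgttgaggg
Ctsl: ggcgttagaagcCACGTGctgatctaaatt
Lgmn: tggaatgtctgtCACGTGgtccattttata
The E-box thus stood nearest to a start in Ctsa and Lgmn, and Ctsd alone held a pair of sites. In Ctsa and in Lgmn the site lay in 1 of the 2 windows, and the window of the other start held no CACGTG.

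Ctss and Psap, which were called in both knockouts and with both inhibitors below, held no CACGTG in these windows. For that reason 1 whole window of each is shown, and the second window of Psap, also without that motif, is not. They lie at chr3:95526536-95526785 (plus strand, Ctss) and chr10:60277378-60277627 (plus strand, Psap). The capitals mark a motif of interferon regulatory factors in Ctss, made of 2 GAAA repeats with any 2 bases between, 21 bases before the start, and an AP-1 motif in Psap, TGAGTCA, 18 bases before the start.
Ctss: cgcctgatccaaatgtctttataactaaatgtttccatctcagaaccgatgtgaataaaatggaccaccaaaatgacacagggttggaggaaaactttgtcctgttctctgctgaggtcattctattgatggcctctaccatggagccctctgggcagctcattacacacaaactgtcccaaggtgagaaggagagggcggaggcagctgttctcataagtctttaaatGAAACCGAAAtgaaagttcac
Psap: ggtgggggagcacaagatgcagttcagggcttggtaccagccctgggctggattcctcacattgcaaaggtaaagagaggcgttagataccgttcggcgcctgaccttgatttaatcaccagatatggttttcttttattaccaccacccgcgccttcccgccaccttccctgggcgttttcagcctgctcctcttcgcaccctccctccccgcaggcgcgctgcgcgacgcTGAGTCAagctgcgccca
These motifs were chosen after the windows had been read. Searched on both strands, they were present in 3.46% and 5.16% of genes, and among the 8 genes in Ctss and Psap alone. The GC box GGGCGG was present in 5 of the 8 against 35.4% of genes, and the PU.1 core GAGGAAGT in 0 of the 8 against 2.79%. A match describes letters only, and binding was not measured.

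The authors divided each gene's fragment count by 1 size factor per library, and the results are called units here. Depth was 2.48 to 3.52 M fragments for GMP libraries and 2.31 to 3.30 M for those of Hoxb8 cells. Values are compared between groups for a given gene, not between genes, because they are not corrected for transcript length. The targeted genes were read first as a check of the labels. Tsc2 averaged 248 units in Tsc2 fl/fl, against 95.1 in Tsc2 KO, a log2 fold change of -1.38 (SE 0.18, adjusted p = 1.7e-04 in limma). Rptor was 88.0, 78.6 and 86.8 units in the Raptor fl/fl libraries and 61.5, 58.7 and 69.5 in the Raptor KO libraries, a log2 fold change of -0.41 (SE 0.24, adjusted p = 0.377 in limma), and the sources used here do not say which exons are floxed. A genotype field of the Tsc2 samples names Raptor, so groups were taken from the sample titles. The libraries numbered 2 of Tsc2 fl/fl and Tsc2 KO stood apart by sex: they had 1.38 to 1.69 units of Xist and 113 to 130.3 of the Y-linked gene Ddx3y, whereas the other 10 GMP libraries had 1239 to 8340 and 0. Progenitor genes of the sort (Kit, Cd34, Mpo, Elane and others, 8 in all) were detected in all 4 GMP groups, with summed values of 36645 to 82303 units in the controls, 63630 to 66168 in Raptor KO and 8693 to 40417 in Tsc2 KO. Neutrophil maturation markers (10 genes such as Ltf, Ngp and Camp) summed to 426 to 1943 units in the control GMPs and to 115135 to 159789 in Hoxb8 cells in DMSO.

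Summed over the 10 genes, values were 4869 to 5121 units in Raptor fl/fl, 6318 to 6797 in Raptor KO, 3777 to 4883 in Tsc2 fl/fl, and 6601 to 6969 in Tsc2 KO. Hoxb8 cells gave 18893 to 20103 units in DMSO, 9200 to 10193 in rapamycin and 11321 to 11375 in SL0101-01. The sum was thus above its control in every knockout library, and the Hoxb8 cells in DMSO had the highest sums of all. These are bulk samples, in which fewer cells of a type and less RNA per cell cannot be told apart. Deletion of Raptor and deletion of Tsc2 act on mTORC1 in opposite directions, and the comparison below asks which of the 10 genes were nonetheless higher in both.

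**Figure D1:**
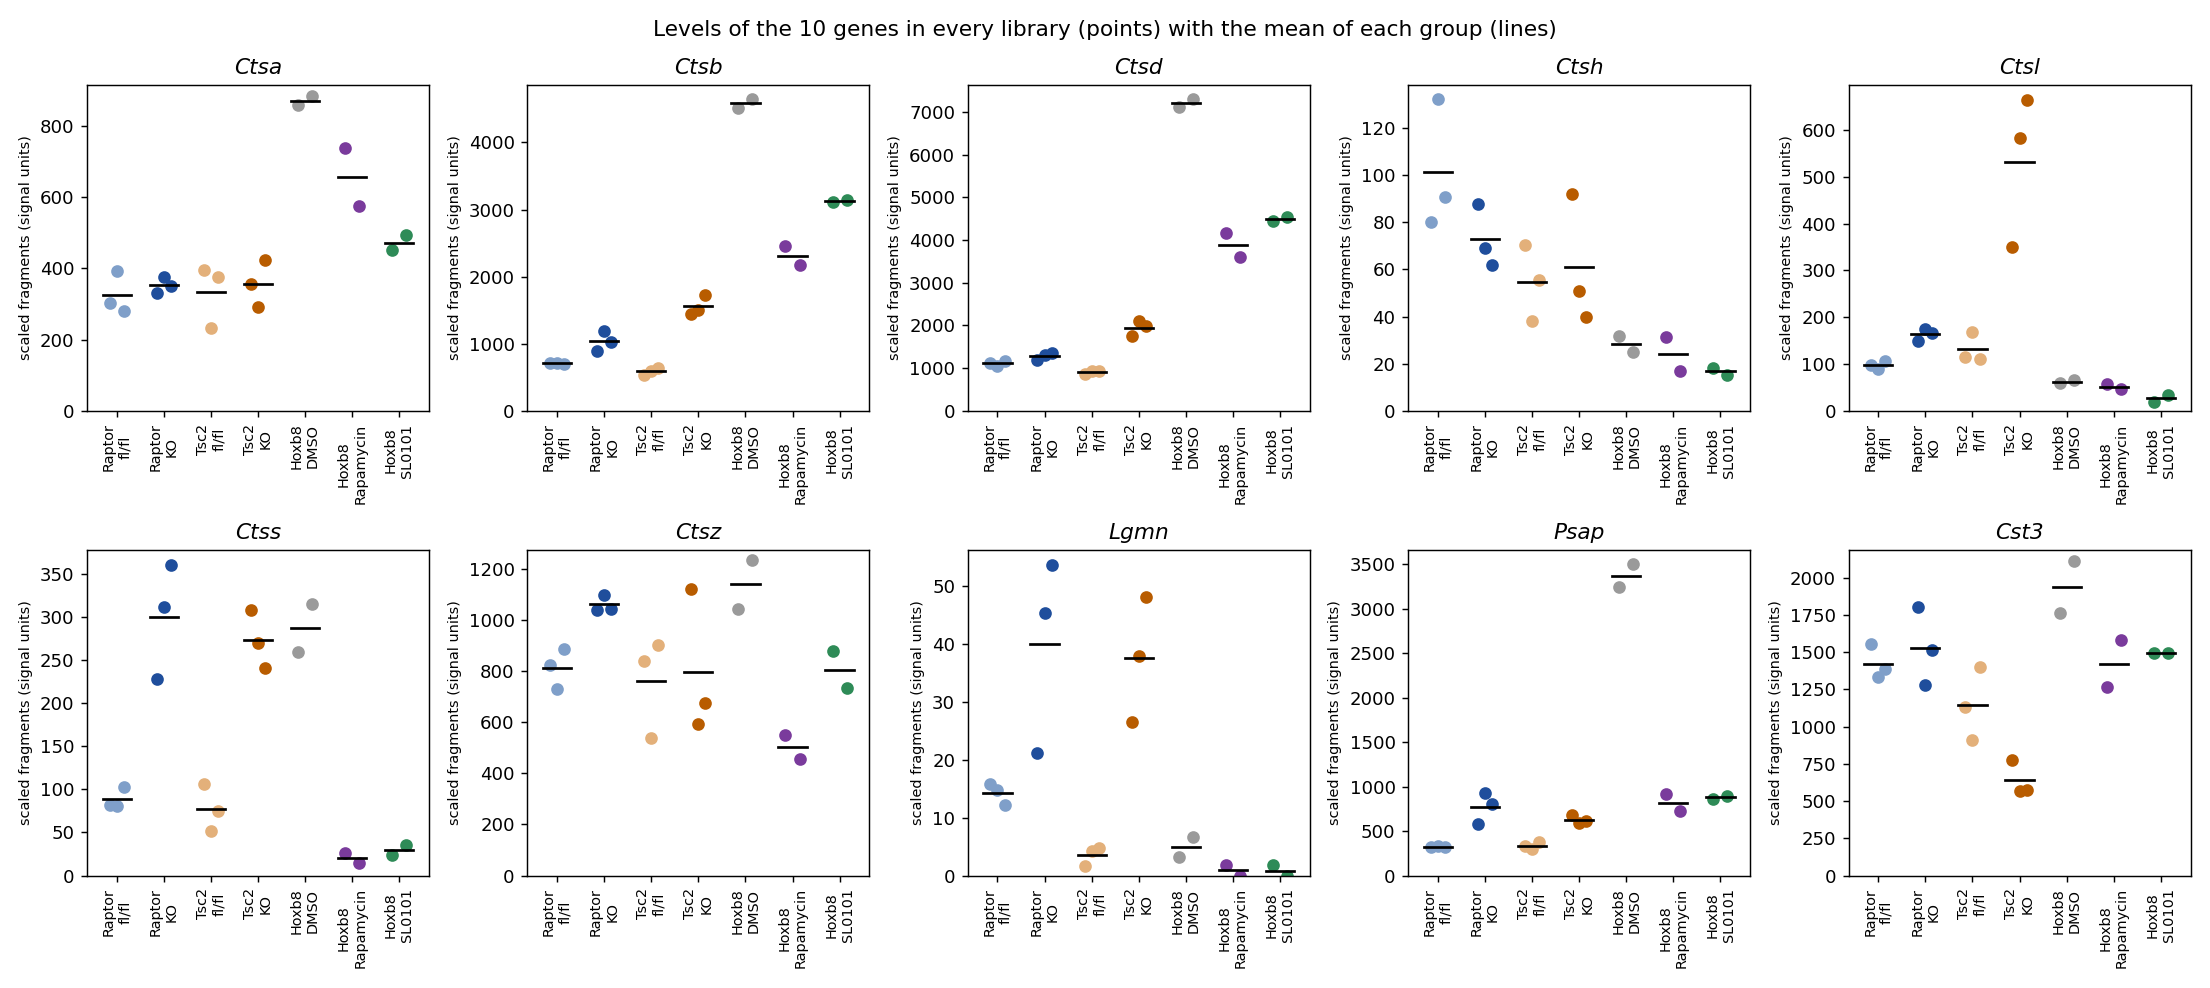
Values of the 10 genes in each of the 18 libraries, 1 panel per gene, with the 7 groups on the horizontal axis and deposited units on a linear vertical axis that starts at 0 in each panel. Points are libraries, black lines are group means, and SL0101 stands for SL0101-01. Ctss and Psap were higher in both knockouts than in their controls, and in Hoxb8 cells both were lower with rapamycin or SL0101-01 than with DMSO.

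Ctss, Psap and Ctsb were the genes of the set that were called higher in both knockouts (limma, adjusted p under 0.05 in each). Only 20 of 13237 tested genes, 0.151%, were called higher in both, and the 3 genes were picked from that result, so nothing is read from the count. Cathepsin S, which unlike most of its relatives stays active at neutral pH and trims the invariant chain for antigen presentation, had the most similar size of change in the 2 lines among these 3 genes. Ctss was 82.3, 80.2 and 103 units in Raptor fl/fl, against 229, 311 and 361 in Raptor KO. It was 107, 51.6 and 75.2 units in Tsc2 fl/fl, against 308, 269.6 and 241 in Tsc2 KO. No knockout library overlapped its controls, and the lowest knockout value, 229, was above the highest control value of either line. The means were 88.5 ± 12.6 and 300.2 ± 66.9 units in Raptor fl/fl and Raptor KO, and 77.8 ± 27.6 and 273 ± 33.9 in Tsc2 fl/fl and Tsc2 KO (SD, n = 3), so that the knockouts stood at 3.39 and 3.51 times the control. The log2 fold changes were 1.74 (SE 0.23) and 1.85 (SE 0.23).

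Prosaposin was the gene of the 3 whose change was larger in Raptor KO. Psap was 326, 329 and 321 units in Raptor fl/fl, against 583, 931 and 810.0 in Raptor KO. It was 332, 299 and 378 units in Tsc2 fl/fl, against 677, 594 and 609.6 in Tsc2 KO. The 4 groups formed 2 levels, with all 6 control libraries below all 6 knockout libraries. The mean in Raptor KO was 2.38 times its control and that in Tsc2 KO 1.86 times, with log2 fold changes of 1.22 (SE 0.15) and 0.90 (SE 0.15).

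Cathepsin B, an abundant cysteine protease that can act as an endopeptidase and as a dipeptidyl carboxypeptidase, was higher in both knockouts and more so in Tsc2 KO. Ctsb was 716, 716 and 704 units in Raptor fl/fl, against 889.995, 1197 and 1020.4 in Raptor KO. It was 532, 599.8 and 639.55 units in Tsc2 fl/fl, against 1440.5, 1508 and 1719 in Tsc2 KO. The groups did not overlap in either line. The means were 1.46 and 2.63 times the control, with log2 fold changes of 0.53 (SE 0.12) and 1.40 (SE 0.12).

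Legumain, cathepsin L and cathepsin D shared the direction in both lines but had their larger fold changes in Tsc2 KO. Lgmn was rare in controls, with 15.9, 14.8 and 12.2 units in Raptor fl/fl, against 1.73, 4.23 and 4.70 in Tsc2 fl/fl, the latter resting on 2, 5 and 5 fragments. It was 21.2, 45.3 and 53.6 units in Raptor KO and 26.5, 37.8 and 48.1 in Tsc2 KO. The knockout libraries of the 2 lines thus overlapped one another, while the controls of the 2 lines did not, and the log2 fold changes were 1.33 (SE 0.45) in Raptor KO and 3.11 (SE 0.45) in Tsc2 KO. Ctsl, an endopeptidase with broad specificity, was 98.1, 89.5 and 105 units in Raptor fl/fl, against 149, 175 and 166 in Raptor KO. It was 114, 169 and 111 units in Tsc2 fl/fl, against 350.0, 582 and 664 in Tsc2 KO. Its libraries did not overlap in either line. The means were 1.68 and 4.04 times the control (log2 fold changes of 0.74 and 1.98, SE 0.22 in both).

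Ctsd, whose product is the main aspartic protease of the lysosome, was 1123, 1054 and 1176 units in Raptor fl/fl, against 1186, 1316 and 1345 in Raptor KO. It was 855, 933 and 942 units in Tsc2 fl/fl, against 1741, 2104 and 1975 in Tsc2 KO. The Raptor KO libraries stood just above their controls, by a log2 fold change of 0.20 (SE 0.11), and the Tsc2 KO libraries stood far above theirs, by 1.09 (SE 0.11). Ctsz, a carboxypeptidase that is also secreted and binds integrins, was 729 to 887 units in Raptor fl/fl, against 1038 to 1099 in Raptor KO. In the Tsc2 line its controls, at 539 to 902 units, overlapped the knockouts at 593 to 1121.

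For cathepsin A, cathepsin H and cystatin C the knockout libraries did not stand clear above their controls in either line. Ctsa was 282 to 394 units in Raptor fl/fl, against 331 to 375 in Raptor KO, and 234 to 394 in Tsc2 fl/fl against 292 to 423 in Tsc2 KO, so that the groups overlapped in both lines. Ctsh, an aminopeptidase, was 80.1 to 132 units in Raptor fl/fl, against 62.0 to 87.7 in Raptor KO, and 38.1 to 70.2 in Tsc2 fl/fl against 40.0 to 92.1 in Tsc2 KO. Its ranges overlapped as well. Cst3, the inhibitor, was 1553, 1330.4 and 1384 units in Raptor fl/fl, against 1803, 1278 and 1511 in Raptor KO. It was 1131, 909 and 1399 units in Tsc2 fl/fl, against 774, 570.1 and 576 in Tsc2 KO. In the Tsc2 line all Cst3 knockout libraries lay below the controls, which held for no other gene of the set in either line. The log2 fold change was -0.83 (SE 0.16) in Tsc2 KO and 0.09 (SE 0.16) in Raptor KO.

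In counts, 3 of the 10 genes were called in Raptor KO, all higher, where 3.94% of all 13237 tested genes were called and 1.53% were called higher. In Tsc2 KO 7 of the 10 were called, 6 higher (Ctsb, Ctsd, Ctsl, Ctss, Lgmn and Psap) and Cst3 lower, where 12.4% of tested genes were called, 5.26% higher and 7.12% lower. The libraries of 7 genes in Raptor KO (26.4% of all genes) and of 7 in Tsc2 KO (27.8%) did not overlap their controls. The median log2 fold change of the 10 genes was 0.46 in Raptor KO and 0.99 in Tsc2 KO, beside 0.03 and -0.02 over all tested genes. These contrasts chose the genes, so the counts describe them and are no support. Set against each other, the change in Raptor KO was smaller than that in Tsc2 KO by 0.87 for Ctsb, 0.89 for Ctsd and 1.24 for Ctsl and larger by 0.93 for Cst3 on the log2 scale, and limma called these 4 differences, where it called 12.4% of all genes. For Ctss the difference was -0.12 and for Psap 0.32, and neither was called. With only the 2 Raptor groups in the fit, 6 of the 10 were called in Raptor KO, among 1249 of 12442 genes. Ctsb, the third call there, was lost without expression trend and robust estimation (adjusted p = 0.125 in limma) and without any 1 of the 6 Raptor-line libraries other than Raptor KO replicate 1 (0.0662 to 0.136), so that 2 of the 10 were left, Ctss and Psap. Without the libraries numbered 2 of the Tsc2 line, 7 were still called in Tsc2 KO.

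**Figure D2:**
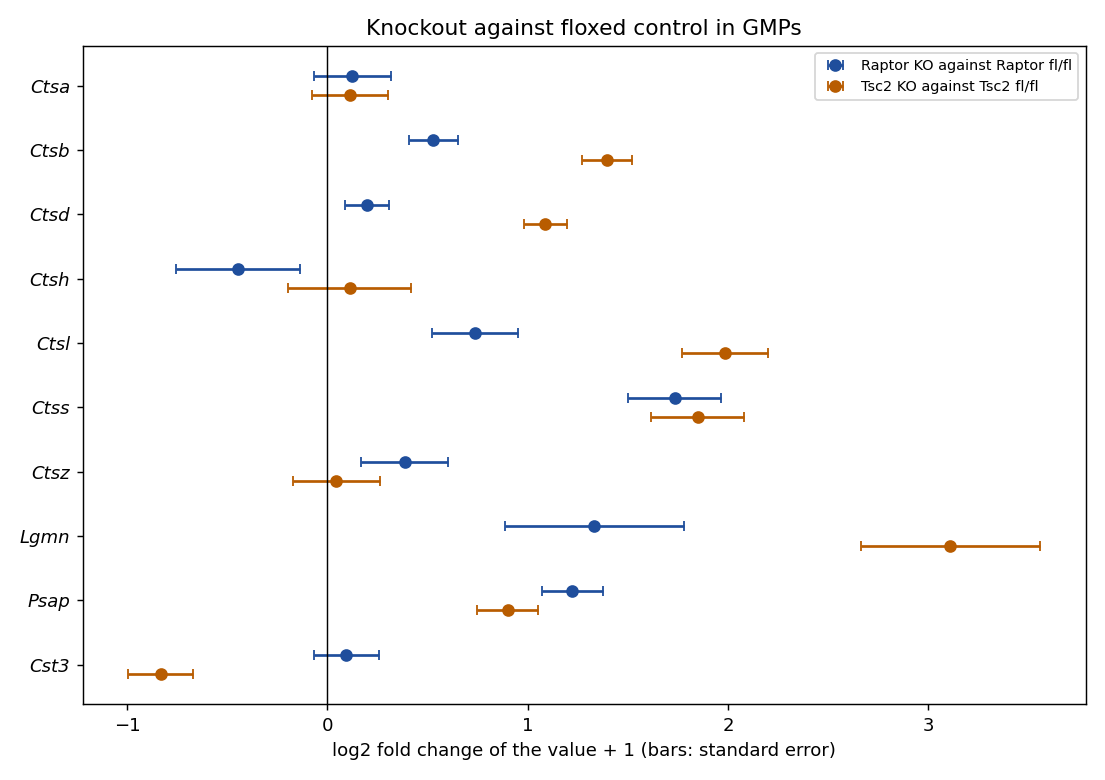
Log2 fold change of the value plus 1 (horizontal axis) for the 10 genes in Raptor KO against Raptor fl/fl (blue) and Tsc2 KO against Tsc2 fl/fl (orange), with bars of 1 standard error. Ctss lay at 1.74 and 1.85, Psap at 1.22 and 0.90, and Cst3 was at -0.83 in Tsc2 KO.

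Marker genes of other cell types also differed between knockouts and controls. Basophil and mast cell markers (6 genes, none at 0) summed to 3519 to 7380 units in Raptor fl/fl, against 9257 to 11332 in Raptor KO. In the Tsc2 line they summed to 1432 to 2671 units in controls and 3329 to 8180 in knockouts. Of these 6, limma called 0 in Raptor KO, where 3 had an unadjusted p under 0.05 (Fcer1a, Gata2 and Prss34). In Tsc2 KO 1 rose (Mcpt8). Ms4a2 overlapped its controls in both lines, and Cpa3, Fcer1a and Gata2 overlapped theirs in the Tsc2 line. B lymphoid markers (8 genes, of which 6 fell in Raptor KO and 7 in Tsc2 KO) summed to 785 to 1167 units in Raptor fl/fl, against 136 to 183 in Raptor KO, and to 325 to 549 in Tsc2 fl/fl, against 18.5 to 67.0 in Tsc2 KO. Of the macrophage markers 15 were read, with sums of 439 to 509 units in Raptor fl/fl, against 352 to 578 in Raptor KO. Timd4 and Cd5l were at 0 in Raptor KO, and 2 of 13 tested markers fell there (Cd5l and Slc40a1). In limma 6 had an unadjusted p under 0.05 there, with Cd163, Cd5l, Mrc1 and Slc40a1 lower and Cd68 and Mertk higher. Cd68 stood at 116, 190 and 194 units against 57.7, 68.5 and 46.3. In the Tsc2 line the macrophage sum was 223 to 406 units in controls and 586 to 705 in knockouts. Marco was at 0 in that line, and 5 of 13 tested markers rose in the knockouts (C1qb, C1qc, Mrc1, Mertk and Slc40a1). Monocyte and dendritic cell markers (14 genes) summed to 2289 to 2803 units in Raptor fl/fl, against 1514 to 1571 in Raptor KO. In the Tsc2 line they summed to 2094 to 2311 units in controls and 693 to 1512 in knockouts. Of these 14, limma called 0 in Raptor KO, where 4 had an unadjusted p under 0.05 (Cd74, H2-Ab1 and Xcr1 lower, Siglech higher). In Tsc2 KO 2 fell (Cd74 and H2-Aa). Ccr2 stood higher in Raptor KO, at 197, 173 and 242 units against 67.1, 67.7 and 90.9. Erythroid markers (10 genes) summed to 2550 to 2851 units in Raptor fl/fl, against 1373 to 1840 in Raptor KO, where 4 fell, and to 2069 to 5834 in Tsc2 fl/fl, against 6590.1 to 13465 in Tsc2 KO, where 3 rose (Car1, Epor and Tfrc). Neutrophil maturation markers (10 genes) summed to 687 to 1943 units in Raptor fl/fl, against 429 to 532 in Raptor KO, where 2 fell (Ltf and Camp). In the Tsc2 line they summed to 426 to 1557 units in controls and 1074 to 3441 in knockouts, where 0 were called by limma. Lcn2 was not called but stood higher in Raptor KO, at 311, 256 and 329 units against 77.9, 54.5 and 141. Basophil and mast cell sums thus moved with Ctss and Psap in both lines, with few markers called, and macrophage and erythroid sums in the Tsc2 line. B lymphoid sums, with most markers called, and monocyte and dendritic cell sums, with few called, moved the other way in both lines. Erythroid and neutrophil sums did so in the Raptor line. Such sums are carried by the most abundant genes, and not every marker of a list moved with its sum. The part of any of these cells in the results on the 10 genes was not tested.

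Rapamycin asks the mTORC1 question with a drug, in cells whose contrasts the choice of genes did not use, although earlier results for them were known. The 6 genes Ctss, Psap, Ctsz, Ctsb, Ctsd and Cst3 fell in rapamycin relative to DMSO (limma, adjusted p under 0.05), and none rose. Over all 11804 genes tested in Hoxb8 cells 11.7% were called, 6.35% lower and 5.4% higher. Values of 9 of the 10 genes were lower in both rapamycin libraries than in both DMSO libraries, as were those of 27% of all genes. The median log2 fold change was -0.94 for the 10 genes and -0.01 for all. An exact permutation test of 2 libraries against 2 cannot go below p = 0.333, so the calls rest on the variance that limma shares across genes.

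Of the 10 genes cathepsin S fell most. Ctss was 259 and 315 units in DMSO and 25.7 and 14.6 in rapamycin, a drop to 7.01% of the DMSO mean (log2 fold change -3.81, SE 0.30, adjusted p = 1.34e-08 in limma). Psap was 3240.2 and 3504 units in DMSO and 918 and 725 in rapamycin, a drop to 24.4% (log2 fold change -2.05, SE 0.14, adjusted p = 2.62e-09 in limma). Neither gene's rapamycin libraries came near its DMSO libraries. Ctsz fell from 1044.5 and 1236 units to 548 and 457, to 44.1% of DMSO (log2 fold change -1.18, SE 0.15, adjusted p = 1.37e-05 in limma).

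Ctsb and Ctsd, which encode an abundant cysteine and the main aspartic protease, also fell. Ctsb was 4515 and 4651 units in DMSO and 2449.8 and 2176 in rapamycin, 50.5% of DMSO (log2 fold change -0.99, SE 0.13, adjusted p = 1.72e-05 in limma). Ctsd was 7117 and 7306 units in DMSO and 4158 and 3608 in rapamycin, 53.9% of DMSO (log2 fold change -0.90, SE 0.13, adjusted p = 5.35e-05 in limma). Cst3, the inhibitor of several of these proteases, was 1765 and 2111 units in DMSO and 1264 and 1581 in rapamycin (log2 fold change -0.45, SE 0.15, adjusted p = 0.0471 in limma). The Cst3 call was lost without DMSO replicate 1, DMSO replicate 2 or rapamycin replicate 1 (adjusted p of 0.101, 0.423 and 0.268 in limma). Without the expression trend and robust estimation only Ctss and Psap of the 10 genes were called in rapamycin.

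Ctsa, Ctsl, Ctsh and Lgmn did not pass in rapamycin. Ctsa was 858 and 883 units in DMSO and 739.6 and 577 in rapamycin (log2 fold change -0.41, adjusted p = 0.0813 in limma), and it passed without rapamycin replicate 1 (adjusted p = 0.0175). Ctsl was 58.5 and 66.4 units in DMSO against 56.8 and 45.9, and Ctsh 31.6 and 24.9 against 31.2 and 16.8. Lgmn rested on 4 and 8 fragments in DMSO and on 2 and 0 in rapamycin. It reached the value of 1 that the low-value filter needed in both DMSO libraries and in replicate 1 of each inhibitor. A count of 0 allowed up to 3.36 units in that rapamycin library, so a difference in Lgmn was not detectable at this depth.

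The RSK inhibitor SL0101-01 was compared with the same DMSO libraries, so its results share their controls with those of rapamycin, and its dose differed. Ctss, Psap, Ctsl, Ctsa, Ctsd, Ctsb and Ctsz fell, 7 of the 10 genes, and none rose, where 10.9% of all tested genes were called, 5.79% lower and 5.09% higher. All 10 genes were lower in both SL0101-01 libraries than in both DMSO libraries, as were 28.2% of all genes. The median log2 fold change was -0.80 for the 10 genes and -0.02 for all. Without trend and robust estimation, Ctss and Psap were the genes still called.

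Ctss and Psap again had the most negative log2 fold changes among the genes called. Ctss was 23.6 and 35.6 units in SL0101-01, 10.3% of the DMSO mean (log2 fold change -3.25, SE 0.30, adjusted p = 2.17e-07 in limma). Psap was 866 and 893 units, 26.1% of DMSO (log2 fold change -1.94, SE 0.14, adjusted p = 7.66e-09 in limma). Ctsa, the carboxypeptidase of the galactosidase complex, was 451 and 494 units, 54.3% of DMSO (log2 fold change -0.88, SE 0.15, adjusted p = 0.000523 in limma). Ctsd was 4453 and 4527 units, 62.3% of DMSO (log2 fold change -0.68, SE 0.13, adjusted p = 0.00133 in limma). None of these 4 genes overlapped DMSO.

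Ctsl, Ctsb and Ctsz passed with less margin. Ctsl was 19.2 and 34.9 units in SL0101-01, 43.3% of DMSO (log2 fold change -1.23, SE 0.31, adjusted p = 0.0123 in limma). Ctsb was 3114 and 3147 units, 68.3% of DMSO (log2 fold change -0.55, SE 0.13, adjusted p = 0.00797 in limma), and Ctsz was 878 and 733 units, 70.7% of DMSO (log2 fold change -0.50, SE 0.15, adjusted p = 0.0369 in limma). With 1 library fewer these calls were mostly lost, while the log2 fold changes ran from -0.57 to -0.53 for Ctsb, -0.63 to -0.37 for Ctsz and -1.65 to -0.82 for Ctsl. Ctsb and Ctsz lost theirs without any 1 of the 4 libraries (adjusted p of 0.0584 to 0.124 and 0.0682 to 0.376 in limma). Ctsl lost its call without DMSO replicate 1, DMSO replicate 2 or SL0101-01 replicate 1 (0.089, 0.164 and 0.214), and Ctsd without DMSO replicate 2 (0.0502). Each of these fits leaves a group with 1 library, which is assumed to vary like the others.

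Cst3, Ctsh and Lgmn did not pass in SL0101-01. Cst3 was 1495 and 1494 units (log2 fold change -0.37, adjusted p = 0.114 in limma), Ctsh 18.4 and 15.2, and Lgmn rested on 2 and 0 fragments, where 0 allowed up to 2.27 units.

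**Figure D3:**
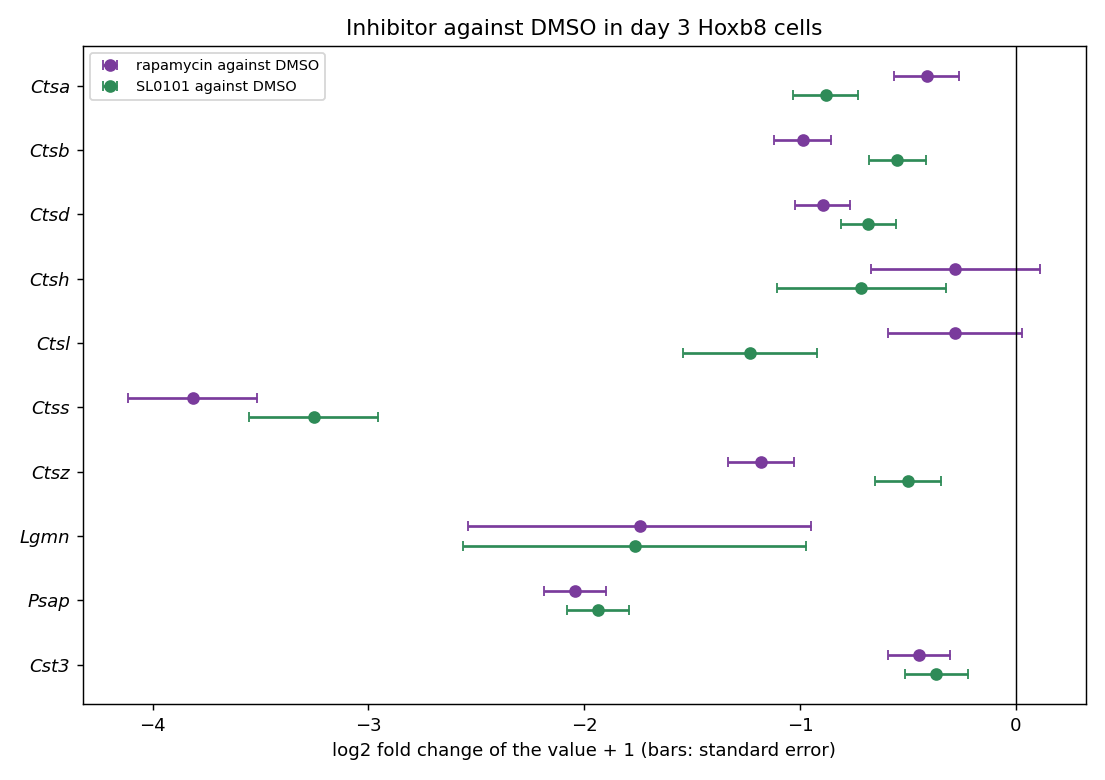
Log2 fold change of the value plus 1 (horizontal axis) for the 10 genes in Hoxb8 cells, rapamycin against DMSO and SL0101-01 against DMSO, with bars of 1 standard error. All values lie below 0, from -3.81 for Ctss in rapamycin to -0.28 for Ctsl and Ctsh in rapamycin.

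Rapamycin was then set against SL0101-01 directly, at their different doses. Ctsb and Ctsz were lower in rapamycin, 2 of the 10 genes, where 8.87% of all tested genes were called and 4.44% were called lower. The differences were -0.44 on the log2 scale for Ctsb (SE 0.13, adjusted p = 0.0388 in limma) and -0.68 for Ctsz (SE 0.15, adjusted p = 0.00771 in limma). Ctsb lost its call without rapamycin replicate 2, SL0101-01 replicate 1 or SL0101-01 replicate 2 (adjusted p of 0.134, 0.227 and 0.153 in limma). Ctsz lost its call without rapamycin replicate 2 or SL0101-01 replicate 1 (0.0568 and 0.157). Ctsa and Ctsl stood the other way, at 0.47 (95% interval 0.15 to 0.78) and 0.95 (0.30 to 1.60) on the log2 scale, and did not pass (adjusted p of 0.0555 and 0.0595 in limma). Ctsa passed without rapamycin replicate 2 (0.0196) and Ctsl without SL0101-01 replicate 2 (0.0269). For Psap the interval of the difference ran from -0.41 to 0.19, for Ctss from -1.18 to 0.06, for Ctsd from -0.48 to 0.06 and for Cst3 from -0.38 to 0.22, so that a difference of Ctss of up to 1.18 is within the error.

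Markers of maturation moved with both inhibitors. The 8 progenitor genes summed to 11057 to 11857 units in DMSO, 56258 to 57534 in rapamycin and 24285 to 31110 in SL0101-01, with Ctsg, Kit, Mpo, Elane and Prtn3 higher in each (5 of 8 tested). The 14 monocyte and dendritic cell markers summed to 5260.4 to 5928 units in DMSO, 3082 to 3089.5 in rapamycin and 2344 to 2801 in SL0101-01, with 7 and 6 of 11 tested lower. The 15 macrophage markers summed to 1885 to 2125 units in DMSO, 478 to 969 in rapamycin and 1045 to 1274 in SL0101-01. C1qa, Mrc1, Marco, Axl, Timd4, Cd5l and Spic were at 0 in all 3. Csf1r, which monocytes also express, made up 1669 and 1850 units of the DMSO sums and was not called with either inhibitor. Of 4 macrophage markers tested, 1 fell with rapamycin (Cd68), and with SL0101-01 Cd68 fell and Vcam1 rose. Neutrophil maturation markers (10 genes) summed to 115135 to 159789 units in DMSO, 62922 to 96777 in rapamycin and 54123 to 81513 in SL0101-01, with 3 and 7 of 10 lower. Progenitor sums were thus higher and mature myeloid sums lower in the libraries where the 10 genes were lower, and their part in the result was not tested.

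**Figure D4:**
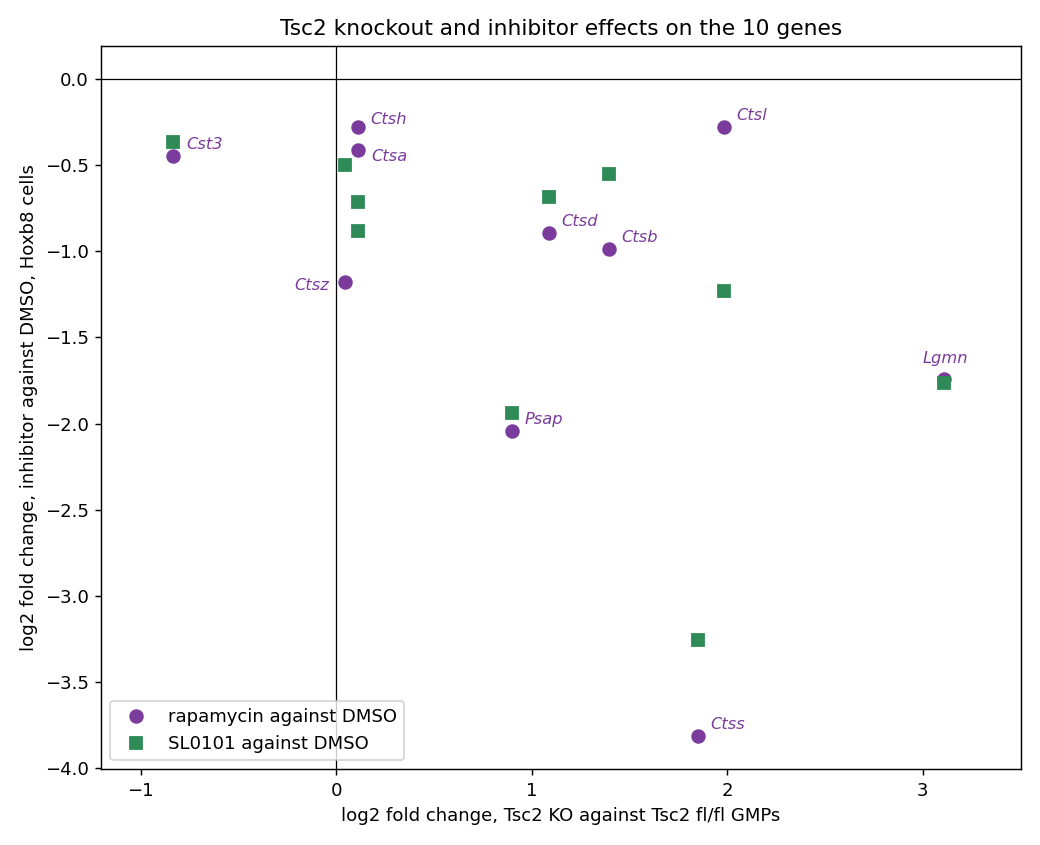
Log2 fold change in Tsc2 KO against Tsc2 fl/fl GMPs (horizontal axis) and in inhibitor-treated against DMSO Hoxb8 cells (vertical axis) for the 10 genes, rapamycin as circles and SL0101-01 as squares. Ctss, at 1.85 in Tsc2 KO, lay lowest with both inhibitors, at -3.81 and -3.25, and Cst3 was the gene left of 0 in Tsc2 KO.

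The differentiated line was also set against the 6 control GMP libraries, to place the levels. Psap, Ctsd, Ctsb, Ctss, Ctsa, Cst3 and Ctsz were higher in Hoxb8 cells in DMSO and Ctsh and Ctsl were lower, 9 of the 10 genes (limma on 18 libraries). This is a comparison in which 52.1% of 13740 genes were called, 22.6% higher and 29.5% lower. Mean Psap was 10.2 times, Ctsd 7.11 times, Ctsb 7.04 times, Ctss 3.45 times and Ctsa 2.64 times that of control GMPs, with log2 fold changes of 3.35, 2.84, 2.82, 1.81 and 1.42. Ctsh was at 36.3% and Ctsl at 54.5% of the control level. Lgmn did not pass (log2 fold change -0.53, adjusted p = 0.427 in limma). Ctsz, at 0.55, was not called without DMSO replicate 1, DMSO replicate 2 or Raptor fl/fl replicate 2 (adjusted p of 0.0572, 0.229 and 0.0511 in limma), nor under a common total (0.0637), quantile normalization (0.167) or limma without trend and robust estimation (0.0732). Ctsl lost its call without DMSO replicate 1 (0.0702) and Cst3 without DMSO replicate 2 (0.0725). The cell source, the culture, the sex (Ddx3y was 116 to 195 units in the line) and the preparation cannot be told apart. Over all genes the median log2 fold change here was -0.15, and -0.25 with libraries scaled to a common total, -0.28 with voom and -0.03 with quantile normalization.

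Across the 7 groups, the genes fell into different orders. Ctss was lowest in rapamycin and SL0101-01, which overlapped, then in both control GMP groups, which overlapped as well, and highest in both knockouts and DMSO, where the ranges of Raptor KO (229 to 361), Tsc2 KO (241 to 308) and DMSO (259 to 315) overlapped. Psap was lowest in the control GMPs at 299 to 378 units. Its ranges in Tsc2 KO (594 to 677), rapamycin (725 to 918) and SL0101-01 (866 to 893) each overlapped that of Raptor KO (583 to 931), and DMSO stood above all at 3240.2 to 3504. Ctsl ran differently, with its highest values in Tsc2 KO (350.0 to 664) and its lowest in SL0101-01 (19.2 to 34.9), and Lgmn was at or under 6.64 units in every Hoxb8 library. Cst3 was lowest in Tsc2 KO (570.1 to 774), and the ranges of the other 6 groups overlapped at least 1 neighbour.

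Other genes of the same system were read from lists. Of 9 further cathepsins and related proteases 1 was called in Raptor KO, Ctsf, which rose from 21.9 to 76.1 units. Ctse was not called but stood lower in Raptor KO, at 159, 116 and 232 units against 448, 479 and 474. In Tsc2 KO 3 rose (Ctse, Ctsk and Tpp1) and 2 fell (Ctsf and Napsa). Ctse, an aspartic protease outside the lysosome proper, went from 639.7 to 2084 units, and Tpp1, a tripeptidyl peptidase, from 173 to 317. In Hoxb8 cells 6 could be tested, and Ctsg, a serine protease of neutrophil primary granules, rose with rapamycin from 1022 to 3883 units and with SL0101-01 to 2142. Ctsc, the dipeptidyl peptidase that activates granule serine proteases, fell with rapamycin from 628 to 227 units and with SL0101-01 to 295, and Tpp1 fell with SL0101-01. Ctsc thus moved with the 10 genes in Hoxb8 cells and Ctsg against them.

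Among 10 other cystatins and stefins, 3 could be tested in GMPs. Cst7, the inhibitor cystatin F, fell in Tsc2 KO from 546 to 170.3 units (log2 fold change -1.83, adjusted p = 0.0184 in limma), the same direction as Cst3. In Hoxb8 cells Cst7 rose with rapamycin, from 758 to 1238 units, and with SL0101-01, to 1142, while 4 of 9 tested fell with each drug (Cstb, Stfa2, Stfa3 and Stfa2l1). The stefin A genes are near-identical copies in a cluster, and fragments could be split among them.

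Of 13 enzymes that saposins or the cathepsin A complex serve, 0 were called in Raptor KO by limma, and 3 of them (Arsa, Asah1 and Glb1) had an unadjusted p under 0.05. In Tsc2 KO Glb1 (beta-galactosidase) and Gm2a (the GM2 activator) fell, from 245 to 138 units and from 674 to 359. With rapamycin Asah1, acid ceramidase, fell from 1090.3 to 636 units and Hexa from 1147 to 751. With SL0101-01 Npc2, a sterol carrier, fell from 1255 to 908 units. Of 16 genes for delivery of hydrolases, Grn (progranulin) rose in Raptor KO from 315 to 518 units and Sort1 (sortilin) fell from 103 to 25.0. Igf2r (a mannose 6-phosphate receptor), Ap1b1 and Vps35 rose in Tsc2 KO, Vps35 from 424 to 795. With rapamycin Gnptg rose and Scarb2 and Vps35 fell, and with SL0101-01 Sort1 and Grn fell, in each case among 15 tested.

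The TFEB family, the factors that bind the E-box named above, was read as RNA. Of Tfeb, Tfe3, Tfec and Mitf, 0 were called in Raptor KO by limma and 0 had an unadjusted p under 0.05 there. Tfe3 rose in Tsc2 KO from 43.3 to 109 units, Mitf fell with rapamycin from 41.9 to 14.9 and with SL0101-01 to 15.2, and Tfec rose with rapamycin from 37.8 to 83.8. The RNA level of these factors does not report on their phosphorylation or location, which were not measured.

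As a description over the 12 GMP libraries, genes among the 5 most alike to the mean standardised level of the 10 genes, among 8198 genes averaging at least 30 units, were Lamp2 (a lysosomal membrane protein; Pearson r = 0.93), Cyp11a1 (the cholesterol side-chain cleavage enzyme; 0.90), Mpeg1 (perforin-2 of macrophages; 0.90) and Apoe (apolipoprotein E; 0.88). The libraries share lines and genotypes, so they are not independent points. Cyp11a1 went from 72.0 to 315 units in Raptor KO and from 21.7 to 109.6 in Tsc2 KO, and was at 0 in all DMSO and rapamycin libraries. Lamp2 went from 657 to 908 and from 542 to 755, and in Hoxb8 cells it was 2031 in DMSO, 1513 in rapamycin and 1605 in SL0101-01.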

How the data were processed

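RNA-seq (SmartSeq2, low input) was read from 18 libraries in 7 groups taken from the sample titles. The deposited values are a signal unit: per the submitters' processing notes, which name TopHat2 2.0.10, BWA, Cuffnorm and Cufflinks 2.2.1, the authors counted fragments per gene and divided them by a size factor per library. The sources used here give neither the genome build nor the use of strand. In each library 98.8% to 99.0% of values above 0 were whole multiples of a single step (tolerance 0.01), which gave 2.31 to 3.52 M fragments per library. Intervals and limits from a count of 0 (3 fragments) cover counting error only.

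Values were tested on the log2(value + 1) scale with limma 3.58.1 (R 4.3.3; expression trend, robust estimation), which understates changes of low genes. GMPs (12 libraries) and Hoxb8 cells (6) were fitted separately, and all 18 together to compare them. Genes needed a value of 1 in 3, 2 and 3 libraries. Adjusted p-values are Benjamini-Hochberg over all tested genes, called under 0.05. The script recovered planted changes in simulated data.

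The 10 genes and all lists were chosen with earlier results of these data known. The text names all 10 genes and Rptor and Tsc2. Of each pathway list it draws on the called genes with a mean of at least 30 in the higher group, up to 3 per direction by fold change. It also draws on the 5 genes most alike in GMPs. Some results that these rules would name are not reported here. Other called list genes are named to account for counts. The script lists are: other cathepsins, cystatins and stefins, saposin-related enzymes, hydrolase delivery, the TFEB family and markers of other cells. Genes selected against in the sort (Ly6a, Il7r, Flt3, Ly6c2) summed to 146 to 360 units in control GMPs.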

Additional observations from a re-analysis of the deposited data

Results flagged for a closer look

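The change in Raptor KO and that in Tsc2 KO differed for 4 of the 10 genes in the limma test of the difference between the 2 lines, where 12.4% of all 13237 genes were called. Raptor effect minus Tsc2 effect was -0.87 (SE 0.18) for Ctsb, -0.89 (SE 0.15) for Ctsd, -1.24 (SE 0.30) for Ctsl and 0.93 (SE 0.23) for Cst3 on the log2 scale. The genes were chosen on these contrasts, so these values are a description. Groups of 2 or 3 libraries were too small for a check of single outlying samples.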

How the results depend on the processing

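No value of the 10 genes changed sign where it had been called, under any alternative run. Without expression trend and robust estimation the genes called numbered 215 (Raptor KO; 522 in the main analysis), 929 (Tsc2 KO; 1638), 714 (difference of the lines; 1646), 188 (rapamycin; 1386), 97 (SL0101-01; 1284) and 14 (rapamycin against SL0101-01; 1047), and the members called 1 for the difference (main 4), 2 for rapamycin (6), 2 for SL0101-01 (7) and 0 for rapamycin against SL0101-01 (2). With only the groups compared in the fit, 1249 genes and 6 members were called in Raptor KO, 471 genes in Tsc2 KO, and 542 genes and 1 member in rapamycin against SL0101-01. A mean of at least 10 left 4 members called in that last comparison.

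Same-numbered libraries did not all deviate together, so the numbers were not taken to pair the samples. The correlations were 0.350, 0.428 and -0.027 in the Tsc2 line and 0.0486, 0.0571 and 0.0186 in the Raptor line. Between the Hoxb8 treatments they were 0.0823, 0.129 and 0.0382, where 2 libraries per group make unlike numbers give the same size with opposite sign. Unlike numbers of the Tsc2 line gave -0.464 to 0.174, and a shared origin of its libraries numbered 1 or 2 was not tested. The Tsc2-line libraries numbered 2 also share their sex. With a replicate block, 706 genes were called in Raptor KO, 1882 in Tsc2 KO, 1855 for the difference, 1857 in rapamycin, 1828 in SL0101-01, and 1691 genes and 4 members in rapamycin against SL0101-01.

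Leaving out 1 library at a time gave 146 to 402 genes and 2 to 3 members for Raptor KO, 601 to 2498 and 7 to 7 for Tsc2 KO, 897 to 2519 and 4 to 5 for their difference, 540 to 1164 and 5 to 6 for rapamycin, 323 to 868 and 3 to 5 for SL0101-01, 128 to 863 and 0 to 2 for rapamycin against SL0101-01, and 5520 to 7212 and 7 to 9 for DMSO against control GMPs. Without both Tsc2-line libraries numbered 2, 1275 genes were called in Tsc2 KO. The causes were not tested beyond the smaller numbers of libraries.

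Scaling to a common total was chosen after seeing the data. In rapamycin against SL0101-01 the share of calls that were higher was 49.95% in the main analysis, 54.5% with quantile normalization, 38.6% with a common total and 38.7% with voom on recovered fragments. TMM scaling, edgeR and DESeq2 were not run, because not all values were whole multiples. Depth limits Lgmn in Hoxb8 cells.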
